A study of Danio rerio with 15 samples.

Results

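Zebrafish larvae mutant for rraga were compared with wild-type larvae injected with zymosan A, in 3 RNA-seq libraries each, which are 6 of the 15 libraries of the series. All genes in the deposited count tables were joined by gene identifier, and a gene missing from a table was set to 0 reads. The rraga mutants were uninjected larvae of the TL strain at 4 days post fertilization that were scored on a confocal microscope and then snap frozen. The zymosan-injected wild type were TL larvae of the same age that were examined on a confocal microscope after injection and then snap frozen. Uninjected TL wild type of the same age, in 3 libraries, stands beside both groups as a baseline, and the labels do not say whether these larvae were imaged. Larvae mutant for tfeb, tfe3a and tfe3b together, zymosan-injected and uninjected with 3 libraries each and of the same strain and age, served to choose zymosan-responsive genes in libraries that enter neither side of the main comparison. All larvae were kept in methylene blue and in PTU, an inhibitor of melanin synthesis, per the labels. Genotype and injection differ together between rraga mutants and zymosan-injected wild type, so their effects cannot be told apart from that comparison alone. No mock-injected group was analysed here. Genes are described as raised or lowered by zymosan when they differ between injected and uninjected larvae of the same genotype. In that difference zymosan cannot be told apart from the injection itself or from any difference in imaging or in the time of collection. Neither the lesion in the rraga line nor the number of larvae per library is given in the labels. The labels call the samples biological replicates without naming clutches or days, and each p-value rests on the variation among the libraries at hand.

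The gene rraga encodes RagA, a small GTPase that sits on the lysosome surface with RagC or RagD and the Ragulator scaffold. When amino acids are plentiful, the Rag GTPases bring the kinase mTORC1 to the lysosome, where it is switched on, and they also present the transcription factors TFEB and TFE3 to it for phosphorylation, which keeps these factors out of the nucleus. TFEB and TFE3 activate genes for lysosomal enzymes, and in zebrafish rraga is known for its role in microglia, the macrophages of the brain. Zymosan A is a preparation of yeast cell wall that macrophages and neutrophils engulf and that starts an inflammatory response. Zebrafish tissues sense light directly, and light raises a set of genes that includes clock repressors and DNA repair enzymes. The series holds wild type and tfeb, tfe3a and tfe3b triple mutants, each with and without zymosan, and rraga mutants without it.

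The 6 libraries held 13892496 to 17566540 counted reads each. Mitochondrially encoded genes took 11.7 to 12.5% of the reads of rraga mutants, and 9.24 to 13.8% of those of zymosan-injected wild type. Within each group replicate 3 stood apart. The chi-square statistic per degree of freedom over genes was 10.8 and 11.6 for the pairs of rraga libraries that include replicate 3, against 4.42 for the other pair, and in zymosan-injected wild type it was 22.9 and 24.8, against 5.58. Levels are given as CPM, read counts relative to library size with scaling by the trimmed mean of M values (TMM), in the order of replicates 1, 2 and 3. A gene is called changed when the adjusted p of edgeR's quasi-likelihood test, fitted over all 15 libraries and adjusted over all 19006 tested genes by the Benjamini-Hochberg method, was under 0.05. Fold changes are on the log2 scale, rraga mutants over the wild-type group named, with the standard error (SE) after the ± sign.

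The transcript of the targeted gene was present in the mutants. At GRCz11 chromosome 14, 14027427 to 14094406, rraga (ENSDARG00000104149) had 26.6, 24.9 and 26.5 CPM in rraga mutants, against 17.04, 16.3 and 16.1 CPM in zymosan-injected wild type and 13.6, 12.7 and 17.8 CPM in uninjected wild type. All 3 mutant libraries were above all 6 wild-type libraries. The log2 fold change was 0.66 ± 0.14, adjusted p = 0.0023, against zymosan-injected wild type and 0.83 ± 0.14, adjusted p = 0.00034, against uninjected wild type. Gene-level counts do not show whether the transcript carries the lesion. The 3 transcription factor genes of the triple mutants were not called changed in rraga mutants against zymosan-injected wild type, with log2 fold changes of 0.20 ± 0.20, adjusted p = 0.55, for tfeb, -0.52 ± 0.36, adjusted p = 0.35, for tfe3a and -1.56 ± 0.66, adjusted p = 0.11, for tfe3b.

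Against zymosan-injected wild type, 1491 genes were higher in rraga mutants (7.84% of those tested) and 1815 were lower (9.55%). The CPM of the groups did not overlap for 1408 of the 1491 and for 1726 of the 1815, where 5731 of all 19006 tested genes (30.2%) had groups that did not overlap (14.8% with the mutants higher and 15.3% with the mutants lower). The change was over 4-fold for 134 higher and 131 lower genes. Higher genes made up 45.1% of the calls with TMM scaling and 59.5% with library totals alone, which gave 1544 higher and 1049 lower genes. Against uninjected wild type, 1440 genes were higher (7.58%) and 1219 were lower (6.41%). Both contrasts use the same rraga libraries, so their calls are not independent.

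Of the 1440 genes above uninjected wild type, 634 (44%) were also above zymosan-injected wild type, which is 3.34% of all tested genes. Another 724 (50.3%) were not called against zymosan-injected wild type, and 341 of these were themselves raised by zymosan in wild type. The other 82 (5.69%) were below zymosan-injected wild type. Both contrasts behind the 341 use the same uninjected libraries, which by itself raises that count. Of the 1219 genes under uninjected wild type, 713 (58.5%, or 3.75% of all tested genes) were also under zymosan-injected wild type, 492 (40.4%) were not called against it and 14 were above it.

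The light-induced genes of rraga mutants stood between those of the wild-type groups in summed level. Of 17 tested, 1 was higher and 6 were lower than in zymosan-injected wild type, with a median log2 fold change of -0.59. A total of 14 were higher than in uninjected wild type, with a median of 1.25. The summed level of the list was 719, 710.5 and 386 CPM in rraga mutants. It was 1194, 1186 and 1181 CPM in zymosan-injected wild type and 205, 221 and 215 CPM in uninjected wild type. The 3 groups did not overlap, the zymosan-injected libraries lay close together, and rraga replicate 3 lay well under the other mutant libraries. Although both groups were on the microscope before freezing, the summed level of light-induced genes differed between them. The parts of genotype, injection and any difference in light exposure or in the time of collection in this gap cannot be told apart.

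The clock repressor per2 had 97.4, 99.5 and 14.3 CPM in rraga mutants, against 228, 216 and 231 CPM in zymosan-injected wild type and 8.33, 12.1 and 8.28 CPM in uninjected wild type. Every mutant library was under every zymosan-injected library, and replicates 1 and 2 were far above replicate 3, which was close to uninjected wild type. The log2 fold change was -1.68 ± 0.35, adjusted p = 0.0017, against zymosan-injected wild type and 2.88 against uninjected wild type. Without rraga replicate 3 the first value was -1.18. The cryptochrome cry1aa, also a clock repressor, had 109, 102 and 30.9 CPM in rraga mutants, against 174, 174 and 170.1 CPM in zymosan-injected wild type and 12.7, 15.4 and 14.02 CPM in uninjected wild type, in the same order of groups and with the same low mutant library. Its log2 fold change of -1.11 ± 0.24, adjusted p = 0.0028, became -0.71 without rraga replicate 3.

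The ring finger gene lonrf1l had 26.6, 26.2 and 10.4 CPM in rraga mutants, against 194, 196 and 183 CPM in zymosan-injected wild type and 5.32, 6.03 and 7.404 CPM in uninjected wild type. All mutant libraries were far under the zymosan-injected ones and above the uninjected ones, with a log2 fold change of -3.18 ± 0.20, adjusted p = 1.5e-10, and 1.76 against uninjected wild type. The clock repressor ciarta had 26.2, 25.2 and 23.4 CPM in rraga mutants, against 71.8, 66.2 and 58.6 CPM in zymosan-injected wild type and 24.5, 23.5 and 23.6 CPM in uninjected wild type. Mutant libraries overlapped the uninjected ones (0.06, adjusted p = 0.78) and lay under all zymosan-injected ones (-1.39 ± 0.11, adjusted p = 3.4e-09). The cryptochrome genes cry1ab (-1.25, adjusted p = 0.00019) and cry4 (-0.57, adjusted p = 0.00062) were also lower than in zymosan-injected wild type. One gene of the list went the other way. The gene lonrf1, which lies on chromosome 14 as rraga does, had 32.3, 27.5 and 15.4 CPM in rraga mutants, against 5.45, 13.3 and 9.38 CPM in zymosan-injected wild type and 1.603, 0.679 and 2.18 CPM in uninjected wild type, with a log2 fold change of 1.41 ± 0.35, adjusted p = 0.0069. The call was lost without rraga replicate 1 (adjusted p = 0.053) and with DESeq2 (adjusted p = 0.066).

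**Figure D1:**
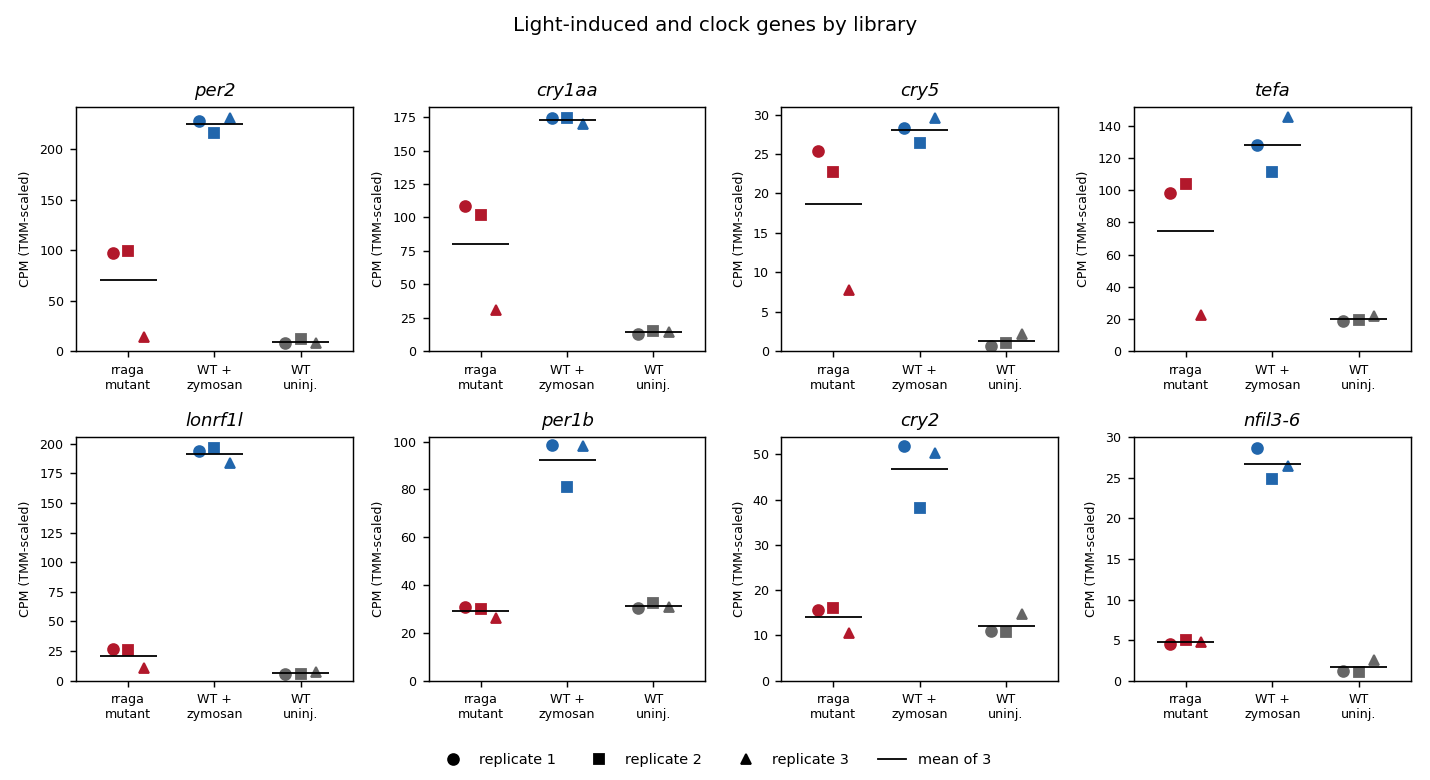
Levels in CPM (linear axes from 0) of 8 light-induced or clock genes in the 3 libraries each of rraga mutants, zymosan-injected wild type and uninjected wild type; each marker is a library, its shape gives the replicate, and the bar is the group mean. For per2 the 3 mutant libraries sit at 97.4, 99.5 and 14.3 CPM, under all zymosan-injected libraries, whereas for per1b the mutants lie with uninjected wild type.

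The other 10 light-induced genes were not called against zymosan-injected wild type. The photolyase gene cry5, whose enzyme repairs ultraviolet damage with the help of light, had 25.3, 22.7 and 7.83 CPM in rraga mutants, against 28.2, 26.4 and 29.5 CPM in zymosan-injected wild type and 0.641, 1.06 and 2.18 CPM in uninjected wild type. Replicates 1 and 2 of the mutants were close to zymosan-injected wild type and replicate 3 was lower, with a log2 fold change of -0.59 ± 0.26, adjusted p = 0.13, against zymosan-injected and 3.91 against uninjected wild type. The clock output factor tefa had 98.6, 104 and 22.4 CPM in rraga mutants, against 128, 112 and 145 CPM in zymosan-injected wild type and 19.04, 19.4 and 21.95 CPM in uninjected wild type (-0.78 ± 0.29, adjusted p = 0.064). Without any single rraga library tefa was called lower, at an adjusted p of 0.024 to 0.043 and a log2 fold change of -1.08 to -0.34. The clock repressor bhlhe40 had 118, 120.4 and 152 CPM in rraga mutants, against 133, 147 and 136 CPM in zymosan-injected wild type and 53.9, 59.6 and 50.2 CPM in uninjected wild type, so its mutant libraries straddled the zymosan-injected ones (-0.10, adjusted p = 0.56) and lay above all uninjected ones (1.25, adjusted p = 1.3e-08). For the DNA damage sensors xpc (-0.67, adjusted p = 0.064) and ddb2 (-1.14, adjusted p = 0.061) and for cry-dash (-0.51, adjusted p = 0.098) and neil1 (-0.24, adjusted p = 0.37), the test against zymosan-injected wild type was not passed. Leaving out single rraga libraries brought calls for cry5, cry-dash, xpc and ddb2: cry5 and ddb2 without replicate 1 (adjusted p = 0.047 and 0.00196), and cry-dash and xpc without replicate 2 (0.035 and 0.0103). Leaving out replicate 3 of zymosan-injected wild type did so for ddb2 (0.022). With no filter on low counts, 11 members of the list were lower, among them tefa (adjusted p = 0.0022), ddb2 (0.0044), xpc (0.0069), cry-dash (0.021) and cry5 (0.036). Without rraga replicate 1 or 2, 9 were lower, with medians of -0.78 and -0.75. With rraga replicate 3 left out, 1 member of the whole list was higher and 7 were lower than in zymosan-injected wild type, with a median of -0.30.

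Clock genes had a larger share of calls against zymosan-injected wild type. Genotype, injection and any difference in light exposure or in the time of collection cannot be told apart here either. Of 32 tested, 20 were lower than in zymosan-injected wild type, with a median of -0.71. Against uninjected wild type 5 were higher and 8 lower. The 8 that were below both wild-type groups included the activators arntl1a and clocka, whose proteins pair to drive the clock. The period gene per1b had 30.98, 29.9 and 26.4 CPM in rraga mutants, against 98.5, 80.9 and 98.1 CPM in zymosan-injected wild type and 30.4, 32.6 and 31.01 CPM in uninjected wild type. The mutant values overlapped those of uninjected wild type (-0.11, adjusted p = 0.62) and were under every zymosan-injected library, with a log2 fold change of -1.67 ± 0.11, adjusted p = 5.1e-10. The cryptochrome cry2 had 15.7, 16.1 and 10.5 CPM in rraga mutants, against 51.8, 38.1 and 50.2 CPM in zymosan-injected wild type and 10.96, 10.7 and 14.7 CPM in uninjected wild type, again under every zymosan-injected library (-1.73 ± 0.16, adjusted p = 4.9e-08) and overlapping the uninjected ones (0.22, adjusted p = 0.42). The repressor nfil3-6, which opposes tef, had 4.51, 5.08 and 4.81 CPM in rraga mutants, against 28.7, 24.9 and 26.5 CPM in zymosan-injected wild type and 1.22, 1.13 and 2.61 CPM in uninjected wild type. Here the mutants stood between the wild-type groups (-2.47 ± 0.17, adjusted p = 1e-09, against zymosan-injected and 1.57, adjusted p = 4e-05, against uninjected).

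Members below both wild-type groups had another shape. The nuclear receptor rorcb, an activator of arntl genes, had 21.3, 29.1 and 30.8 CPM in rraga mutants, against 91.6, 93.7 and 105 CPM in zymosan-injected wild type and 51.5, 45.3 and 47.1 CPM in uninjected wild type (-1.84 and -0.83). The repressor nr1d4b had 2.58, 1.77 and 4.59 CPM in rraga mutants, against 11.7, 12.7 and 12.7 CPM in zymosan-injected wild type and 11.3, 7.77 and 13.4 CPM in uninjected wild type (-2.05 and -1.85). For arntl1a the values were 19.7, 17 and 17.7 CPM in rraga mutants, against 31.7, 29.2 and 30.7 CPM in zymosan-injected wild type and 27.1, 30.01 and 31.7 CPM in uninjected wild type (-0.75 and -0.70). In these 3 genes no mutant library reached any of the 6 wild-type libraries. The gene for the melatonin synthesis enzyme aanat2 (-1.86 and -1.12), clocka (-0.88 and -0.93) and nfil3-5 (-1.87 and -0.64) were likewise lower than both groups.

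Immediate early genes, which neurons and other cells switch on within minutes of a stimulus, had more lower than higher members in rraga mutants. Of 35 tested, 18 were lower and 1 was higher than in zymosan-injected wild type, with a median of -0.84. A total of 11 were lower than both wild-type groups. The AP-1 subunit gene junba had 8.37, 9.199 and 8.47 CPM in rraga mutants, against 47.5, 44.6 and 53.6 CPM in zymosan-injected wild type and 13.7, 13.2 and 13.8 CPM in uninjected wild type, with a log2 fold change of -2.48 ± 0.13, adjusted p = 2.8e-12, against zymosan-injected and -0.65, adjusted p = 0.0013, against uninjected wild type. Its relative junbb had 2.72, 3.09 and 3.59 CPM in rraga mutants, against 26.5, 35.8 and 31.9 CPM in zymosan-injected wild type and 24.6, 24.1 and 28.3 CPM in uninjected wild type. All 3 mutant libraries were far under all 6 wild-type libraries (-3.32 ± 0.17, adjusted p = 3.4e-12, and -3.03), and zymosan itself was not called for this gene in wild type (0.29, adjusted p = 0.22). The AP-1 gene fosab had 5.01, 4.78 and 5.89 CPM in rraga mutants, against 34.2, 31.96 and 30.1 CPM in zymosan-injected wild type and 25.8, 21.7 and 22.7 CPM in uninjected wild type (-2.61 and -2.16). The growth factor response gene egr1, on chromosome 14, had 5.44, 5.52 and 6.39 CPM in rraga mutants, against 26.8, 16.97 and 27.7 CPM in zymosan-injected wild type and 38.02, 44.9 and 42.9 CPM in uninjected wild type (-2.04 and -2.86), with no overlap.

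Some members were high after zymosan and low in both uninjected groups. The AP-1 gene fosl1a had 4.29, 3.16 and 3.52 CPM in rraga mutants, against 31.9, 26.8 and 34.99 CPM in zymosan-injected wild type and 5.26, 2.04 and 3.66 CPM in uninjected wild type. The mutants overlapped uninjected wild type (-0.01, adjusted p = 0.99) and were under all zymosan-injected libraries (-3.09 ± 0.25, adjusted p = 9.8e-09). The stress factor atf3 followed the same order (-2.05 and -0.04). The activity-dependent neuronal gene npas4a was not called against zymosan-injected wild type (0.31, adjusted p = 0.52) and was lower than in uninjected wild type (-1.88). The nuclear receptor gene nr4a1 was the member that was higher (1.18, adjusted p = 0.0083), a call lost without rraga replicate 3 (adjusted p = 0.064).

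Lysosomal enzymes had more higher than lower members against both wild-type groups. Of 71 hydrolases and activators tested, 33 were higher and 2 lower in rraga mutants than in zymosan-injected wild type, with a median log2 fold change of 0.54, where all tested genes had a median of -0.00. Against uninjected wild type 38 were higher and 2 lower (median 0.63; 1 lower without any one rraga library), and 31 were higher than both. Zymosan injection of wild type raised 3 (6.07% of all genes) and lowered 2 (3.83%). The summed level of the list was 3252, 3456 and 3317 CPM in rraga mutants, 2180.2, 2221 and 2132 CPM in zymosan-injected wild type and 2059, 1998 and 1997 CPM in uninjected wild type. The zymosan-injected and uninjected libraries lay close to each other, and the mutants stood above both. Without rraga replicate 3, 34 members were higher and 2 lower of 72 tested. Macrophages are rich in lysosomes, and the summed level of the microglia and macrophage list was 752, 707 and 714 CPM in rraga mutants, 637, 598 and 649 CPM in zymosan-injected wild type and 625, 609 and 574 CPM in uninjected wild type. Most of the mutants' sum came from the gene apoeb, and without it every mutant library was below every library of both wild-type groups. The part of macrophages in the lysosomal result was not tested. In whole larvae, fewer cells of a type and less RNA per cell cannot be told apart, and the same holds in the other direction.

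Cathepsins are the main lysosomal proteases. Cathepsin C, ctsc, which activates serine proteases of immune cells, had 59.4, 63.1 and 73.4 CPM in rraga mutants, against 23.2, 24.4 and 27.4 CPM in zymosan-injected wild type and 24.7, 24.4 and 25.9 CPM in uninjected wild type, with a log2 fold change of 1.38 ± 0.11, adjusted p = 8.8e-09, against zymosan-injected and 1.38 against uninjected wild type. The aspartic protease ctsd had 133, 129.7 and 129 CPM in rraga mutants, against 60.2, 64.2 and 59.9 CPM in zymosan-injected wild type and 60.8, 51.3 and 62.5 CPM in uninjected wild type (1.09 ± 0.10, adjusted p = 1.1e-07, and 1.16). The carboxypeptidase ctsz had 88.8, 88.1 and 91.04 CPM in rraga mutants, against 37.7, 43.3 and 37.6 CPM in zymosan-injected wild type and 43.1, 33.6 and 38.1 CPM in uninjected wild type (1.17 and 1.22). For these 3 genes the wild-type groups overlapped each other and no mutant library overlapped any of them. The collagen-degrading ctsk had 49.4, 40.99 and 39.2 CPM in rraga mutants, against 14.9, 21.4 and 20.02 CPM in zymosan-injected wild type and 17.2, 20.96 and 18.6 CPM in uninjected wild type (1.197 and 1.19). Values for the cysteine protease ctsba were more spread, at 121, 237 and 153 CPM in rraga mutants, against 77.7, 49.7 and 63.1 CPM in zymosan-injected wild type and 53.5, 40.4 and 57.1 CPM in uninjected wild type (1.43 ± 0.20, adjusted p = 5.4e-05), and this gene had no reads in any triple mutant library.

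**Figure D2:**
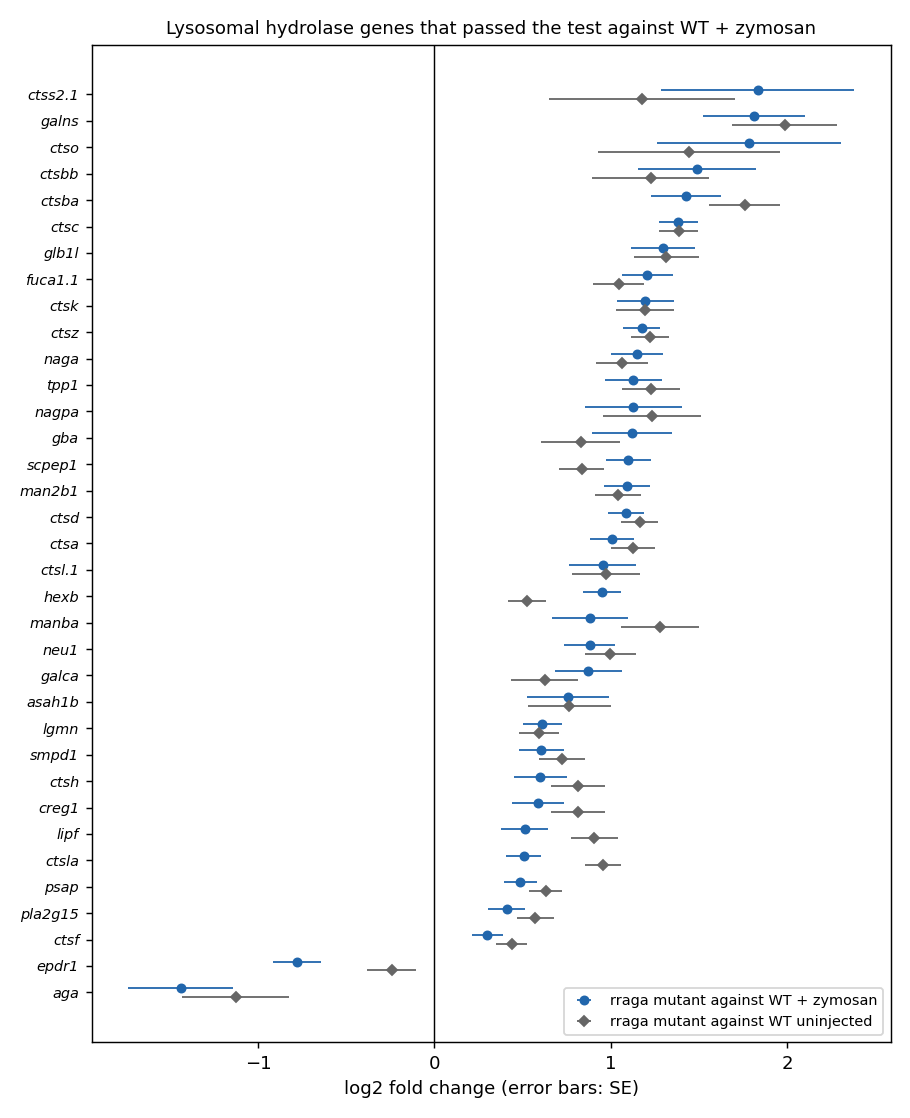
Log2 fold changes with SE of the 35 lysosomal hydrolase genes called in rraga mutants against zymosan-injected wild type, each drawn against zymosan-injected wild type (upper marker) and against uninjected wild type (lower marker). The values for ctsc are 1.38 and 1.38, and most members lie at similar values in both contrasts; the exceptions on the negative side are aga and epdr1.

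Other members of the list cleave sugars, lipids or peptides, and those named here include genes chosen after their values were seen. The hexosaminidase subunit hexb, which degrades gangliosides, had 102, 114 and 119 CPM in rraga mutants, against 55.8, 66.2 and 50.5 CPM in zymosan-injected wild type and 72.2, 77.8 and 82.5 CPM in uninjected wild type. It was higher than both groups (0.95 ± 0.11, adjusted p = 1.4e-06, and 0.52, adjusted p = 0.0017), and zymosan lowered it in wild type (-0.43, adjusted p = 0.011). The mannosidase man2b1 had 39.1, 44.7 and 48.5 CPM in rraga mutants, against 18.2, 21.6 and 22.2 CPM in zymosan-injected wild type and 23.2, 19 and 22.1 CPM in uninjected wild type (1.09 and 1.04). Against zymosan-injected wild type the log2 fold changes were 1.21 for the fucosidase fuca1.1, 1.15 for the galactosaminidase naga, 1.13 for the tripeptidyl peptidase tpp1, 1.1 for the carboxypeptidase scpep1 and 1.01 for the protective protein ctsa. The sphingolipid activator psap, with much larger read numbers, had 662, 680.1 and 633 CPM in rraga mutants, against 482, 499.8 and 427 CPM in zymosan-injected wild type and 424, 414 and 437 CPM in uninjected wild type (0.49 ± 0.09, adjusted p = 0.0007), a smaller change without overlap. Glucocerebrosidase, gba, had 12.4, 10.5 and 9.69 CPM in rraga mutants, against 6.77, 3.68 and 4.59 CPM in zymosan-injected wild type (1.12 ± 0.23, adjusted p = 0.0013). Those that fell were aga, an enzyme of glycoprotein breakdown on chromosome 14 (-1.44 and -1.13), and epdr1 (-0.78, and -0.24, adjusted p = 0.28 against uninjected wild type).

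Of 56 lysosomal membrane proteins and enzyme receptors tested, 11 were higher and 6 lower than in zymosan-injected wild type. The lower share (10.7%) was near that of all tested genes (9.55%). The mannose 6-phosphate receptor igf2r, which carries new enzymes to the lysosome, had 27.3, 25.6 and 33.3 CPM in rraga mutants, against 5.99, 8.48 and 13.4 CPM in zymosan-injected wild type and 15.4, 18.02 and 11.6 CPM in uninjected wild type (1.62 ± 0.22, adjusted p = 1.1e-05, and 0.93). The cholesterol carrier npc2 had 71.97, 70.4 and 75.2 CPM in rraga mutants, against 52.1, 58.7 and 41.5 CPM in zymosan-injected wild type and 48.1, 46.6 and 46.95 CPM in uninjected wild type (0.52 ± 0.11, adjusted p = 0.0027). The amino acid transporter slc15a4 (1.32), the chloride exchanger clcn7 (0.57) and gnptab, which makes the mannose 6-phosphate tag (0.58), were also higher. Values of tmem106ba were 44.1, 42.5 and 24.5 CPM in rraga mutants, against 81.4, 73.3 and 62.3 CPM in zymosan-injected wild type and 28.1, 27.8 and 32.9 CPM in uninjected wild type. The mutants were lower than zymosan-injected wild type (-0.96 ± 0.16, adjusted p = 0.00012), where zymosan had raised the gene (1.29). The count of 6 lower members was 3 without rraga replicate 1 and 3 without replicate 2 of zymosan-injected wild type.

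Of 28 tested subunits and partners of the V-ATPase, the proton pump that acidifies lysosomes, 8 were higher and 3 lower than in zymosan-injected wild type. The lower share (10.7%) was near that of all tested genes (9.55%). The subunit tcirg1b, on chromosome 14, had 19.5, 20.9 and 23.6 CPM in rraga mutants, against 8.79, 10.4 and 7.24 CPM in zymosan-injected wild type and 10.1, 7.92 and 9.15 CPM in uninjected wild type (1.28 ± 0.17, adjusted p = 1.6e-05). The accessory subunit atp6ap1b had 39.6, 40.6 and 33.5 CPM in rraga mutants, against 22.02, 21.1 and 22.8 CPM in zymosan-injected wild type and 23.8, 21.8 and 18.9 CPM in uninjected wild type (0.78 ± 0.12, adjusted p = 4.5e-05). Neither gene overlapped between mutants and wild type. Lower members were atp6ap1la (-0.83), atp6v0cb (-0.49) and rnasekb (-0.41), and 5 were lower without replicate 3 of zymosan-injected wild type. One of the 8 higher members has the symbol rpl26 in the tables and atp6v0e1 in the name table (1.24), and its identity was not settled. The summed V-ATPase level was 2647, 2807 and 2566 CPM in rraga mutants. It overlapped zymosan-injected wild type (2771, 2760 and 2397 CPM) and was above every uninjected library (2301, 2379 and 2485 CPM). Over all 155 lysosomal genes tested, 52 were higher and 11 lower than in zymosan-injected wild type, and 49 were higher than both. Hydrolases made up 33 of the 52 and 31 of the 49.

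The other genes of the Rag pathway and the autophagy machinery went in both directions. Of 46 Rag, Ragulator and mTORC1 genes tested, 8 were higher and 8 lower than in zymosan-injected wild type, with a median of 0.01; the lower count was 5 without rraga replicate 3. The sestrin sesn1, an inhibitor of mTORC1, had 79.4, 82.8 and 77.9 CPM in rraga mutants, against 154, 137 and 159 CPM in zymosan-injected wild type and 67.5, 72.7 and 65.2 CPM in uninjected wild type, so the mutants were under every zymosan-injected library (-0.91 ± 0.10, adjusted p = 7.9e-07) and not called against uninjected wild type (0.22, adjusted p = 0.14). The translation repressor eif4ebp1, a substrate of mTORC1, had 9.59, 6.11 and 8.04 CPM in rraga mutants, against 15.6, 15.3 and 21.8 CPM in zymosan-injected wild type and 17.8, 17.3 and 19.1 CPM in uninjected wild type and was lower than both groups (-1.15 and -1.19). The folliculin partner fnip1 had 67.3, 67.6 and 68.9 CPM in rraga mutants, against 42.02, 44 and 58.6 CPM in zymosan-injected wild type and 38.9, 45.3 and 35.7 CPM in uninjected wild type, the highest values being those of the mutants (0.49 and 0.77). The mTORC1 inhibitors tsc2 (0.53) and depdc5 (0.61) and the Ragulator subunit lamtor1 (1.05) were higher than in zymosan-injected wild type. RagC and RagD were not called (0.19, adjusted p = 0.56, for rragca and 1.06, adjusted p = 0.076, for rragd), although rragd was called higher without replicate 3 of zymosan-injected wild type (1.54, adjusted p = 0.023).

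Of 9 MiT/TFE factors and classical targets tested, 1 was higher, the lysosomal glycoprotein gpnmb, with 82.9, 81.2 and 73.8 CPM in rraga mutants, against 43.1, 44.8 and 41.9 CPM in zymosan-injected wild type and 46.8, 42.5 and 48.7 CPM in uninjected wild type (0.87 ± 0.10, adjusted p = 2e-06, and 0.79); no mutant library overlapped the wild type. With 1 of 9 members, the higher share of the MiT/TFE list was near that of all tested genes (7.84%). Among 58 autophagy genes 9 were higher and 7 lower than in zymosan-injected wild type. The lower share of the autophagy list was near that of all tested genes (9.55%). The ubiquitin-like protein gene gabarapa had 15.3, 17.2 and 20.6 CPM in rraga mutants, against 38.8, 41.1 and 33.4 CPM in zymosan-injected wild type and 29.7, 28.8 and 27.4 CPM in uninjected wild type (-1.09 ± 0.12, adjusted p = 9.6e-07). The autophagy receptor calcoco1b had 18.96, 15.7 and 14.6 CPM in rraga mutants, against 5.45, 4.54 and 6.55 CPM in zymosan-injected wild type and 4.04, 4.07 and 2.44 CPM in uninjected wild type (1.57 ± 0.24, adjusted p = 5.4e-05). Neither overlapped between mutants and wild type. The autophagy counts became 4 higher and 4 lower without rraga replicate 1 or without replicate 2 of zymosan-injected wild type, and the higher count was 4 without rraga replicate 2 and 5 without rraga replicate 3.

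**Figure D3:**
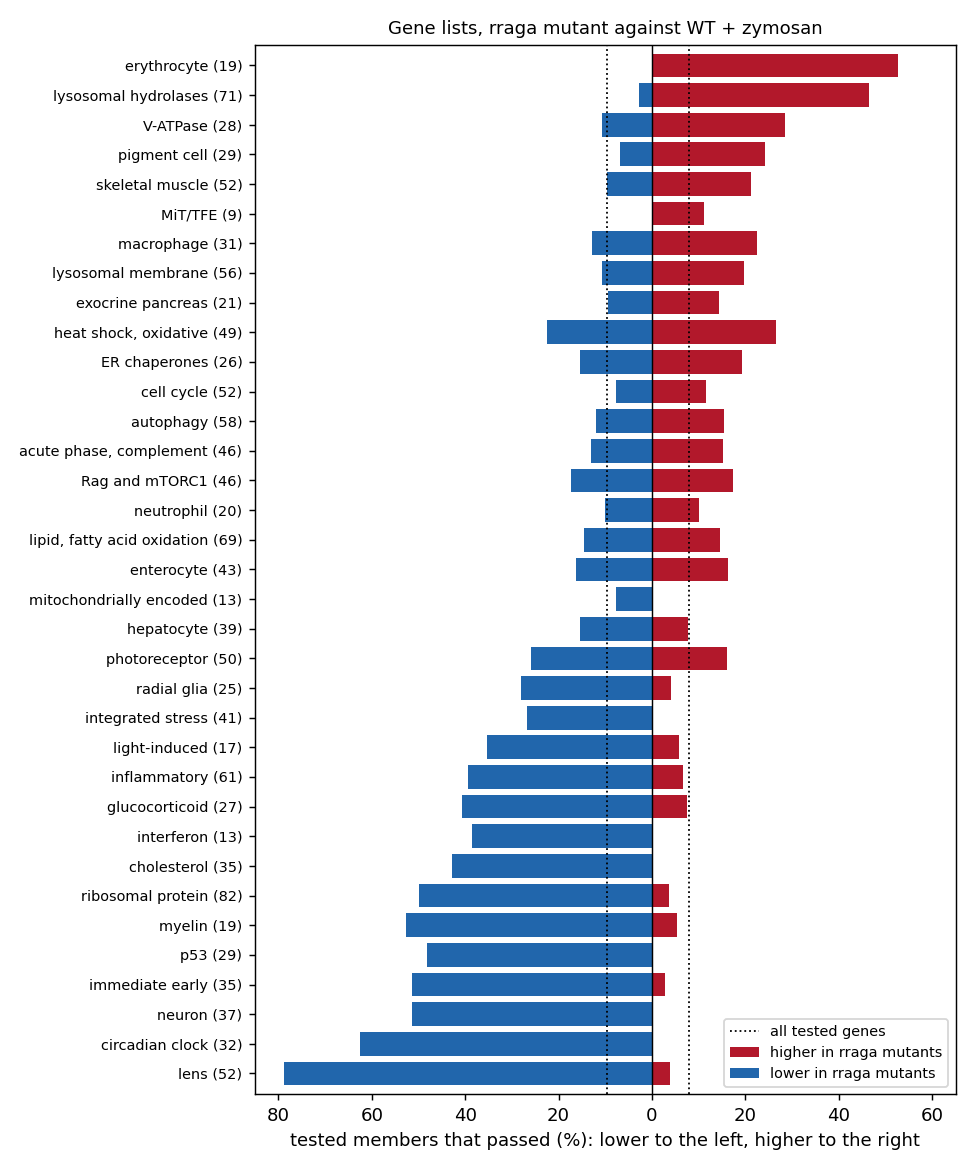
Share of the tested members of each gene list that were higher (right) or lower (left) in rraga mutants than in zymosan-injected wild type, in percent; dotted lines mark the shares over all tested genes, 7.84% higher and 9.55% lower. Lysosomal hydrolases and erythrocyte genes have the largest shares on the higher side, and lens and clock genes on the lower side.

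Several tissue lists had larger shares of calls than all tested genes. Of 52 lens genes tested, 41 were lower and 2 higher than in zymosan-injected wild type (median -0.73; 1 higher without rraga replicate 2 or zymosan-injected replicate 3), 26 lower and 1 higher than in uninjected wild type (median -0.54), and zymosan in wild type changed 3 upward and 1 downward. The crystallin crygm2d15 had 129, 139 and 109 CPM in rraga mutants, against 316, 294 and 279.6 CPM in zymosan-injected wild type and 279.9, 270.5 and 309 CPM in uninjected wild type (-1.23 ± 0.10, adjusted p = 1.5e-08, and -1.18). The lens membrane protein lim2.1 had 0.501, 0.957 and 1.15 CPM in rraga mutants, against 14.6, 12.7 and 12.5 CPM in zymosan-injected wild type and 10.6, 4.83 and 8.54 CPM in uninjected wild type (-3.92 ± 0.33, adjusted p = 1.5e-08, and -3.19). No mutant library overlapped the wild type for either gene. The lens water channel mipa went the other way, at 73.3, 90.5 and 64.6 CPM in rraga mutants, against 1.401, 1.38 and 1.32 CPM in zymosan-injected wild type and 1.09, 0.905 and 0.784 CPM in uninjected wild type (5.79 ± 0.21, adjusted p = 1.6e-14, and 6.33), and it stood at 71.3 ± 18.2 CPM in zymosan-injected and 65.9 ± 6.49 CPM in uninjected triple mutants (SD, n = 3 each). Some crystallin genes are near-identical copies, and the labels do not say how reads shared by such copies were counted. The summed level of the lens list was 16622, 18499 and 15228 CPM in rraga mutants, 29464, 28458 and 21806 CPM in zymosan-injected wild type and 21962, 21787 and 25779 CPM in uninjected wild type, and 15091 to 21345 CPM in the 6 triple mutant libraries.

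Of 19 myelin genes tested, 10 were lower and 1 higher than in zymosan-injected wild type (median -0.60), and 8 were lower than both. Proteolipid protein plp1b had 2.003, 2.797 and 4.24 CPM in rraga mutants, against 25.8, 24.3 and 18.4 CPM in zymosan-injected wild type and 18.3, 19.1 and 22.9 CPM in uninjected wild type (-2.92 ± 0.21, adjusted p = 1.5e-09, and -2.73). Claudin k, cldnk, had 6.01, 6.03 and 4.31 CPM in rraga mutants, against 21.9, 25.2 and 24.2 CPM in zymosan-injected wild type and 18.5, 20.2 and 22.3 CPM in uninjected wild type (-2.13 and -1.897). Myelin basic protein mbpa had 43.6, 52.1 and 44.5 CPM in rraga mutants, against 106, 96.7 and 92.6 CPM in zymosan-injected wild type and 90.5, 85.97 and 92.2 CPM in uninjected wild type (-1.08 and -0.94). All mutant libraries were under all wild-type libraries in these 3 genes. The tetraspanin tspan2a was the one higher member (0.74), and 2 were higher without replicate 3 of zymosan-injected wild type.

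Of 37 neuronal genes tested, 19 were lower than in zymosan-injected wild type, with a median of -0.29. Synaptobrevin vamp2, part of the machinery of vesicle release, had 49.2, 46.3 and 41.3 CPM in rraga mutants, against 103, 101 and 134 CPM in zymosan-injected wild type and 98.2, 103 and 87.98 CPM in uninjected wild type (-1.31 ± 0.12, adjusted p = 5e-08, and -1.08), with no overlap. The vesicular glutamate transporter slc17a6b (-0.96, adjusted p = 3.1e-06) and gad2, an enzyme of inhibitory transmitter synthesis (-0.46, adjusted p = 0.00043), were also lower. The count of 19 was 12 without rraga replicate 1, 12 without replicate 2 of zymosan-injected wild type, 11 with library totals alone and 10 in a fit of only the 6 libraries.

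Photoreceptor genes divided. Of 50 tested, 8 were higher and 13 lower than in zymosan-injected wild type. Rod transducin gnat1 had 78.1, 78.8 and 84.1 CPM in rraga mutants, against 160.1, 159 and 126 CPM in zymosan-injected wild type and 148, 139 and 174 CPM in uninjected wild type (-0.88 and -0.94). The retinal pigment epithelium enzyme rpe65a, which regenerates the visual chromophore, had 473, 498 and 404 CPM in rraga mutants, against 276, 304 and 232 CPM in zymosan-injected wild type and 101, 113 and 139 CPM in uninjected wild type (0.76 and 1.96). For these genes the mutants lay outside the range of both wild-type groups, on opposite sides. The cone phosphodiesterase subunit pde6ha had 105, 108 and 42.4 CPM in rraga mutants, against 177, 164 and 134 CPM in zymosan-injected wild type and 6.99, 6.86 and 9.32 CPM in uninjected wild type. The mutants stood between the groups, with replicate 3 lowest (-0.89, adjusted p = 0.0069, and 3.47; -0.56 against zymosan-injected wild type without rraga replicate 3). Leaving out replicate 1 of zymosan-injected wild type left 8 lower members, and leaving out its replicate 3 or rraga replicate 1 left 5 higher ones.

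Of 19 red blood cell genes tested, 10 were higher than in zymosan-injected wild type (median 0.85), and 7 were higher than both (4 without rraga replicate 2). The embryonic globin hbae3 had 409.9, 424 and 301 CPM in rraga mutants, against 159.9, 197 and 97.8 CPM in zymosan-injected wild type and 144, 145 and 132 CPM in uninjected wild type (1.32 ± 0.18, adjusted p = 1.5e-05, and 1.43). The anion exchanger slc4a1a of the red cell membrane had 14.02, 13.7 and 12.8 CPM in rraga mutants, against 3.35, 6.12 and 5.16 CPM in zymosan-injected wild type and 9.74, 7.54 and 4.27 CPM in uninjected wild type (1.46 and 0.89). The transferrin receptor tfr1a, through which red cell precursors take up iron, had 31.8, 34.2 and 26.8 CPM in rraga mutants, against 8.33, 10.5 and 7.55 CPM in zymosan-injected wild type and 8.08, 8.67 and 7.75 CPM in uninjected wild type (1.82 ± 0.15, adjusted p = 8.5e-09, and 1.92). The mutants did not overlap the wild type in any of these. Summed levels of the list were 1320, 1359.7 and 1187 CPM in rraga mutants, 673, 791 and 507 CPM in zymosan-injected wild type and 686, 721 and 651 CPM in uninjected wild type, with 894 to 1160 CPM in the triple mutant libraries.

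Skeletal muscle genes had 11 higher (21.2%) and 5 lower (9.62%) members of 52 tested, and 11 and 4 against both wild-type groups. The lower share was near that of all tested genes (9.55%). The Z-disc protein gene actn3a had 244, 341 and 276 CPM in rraga mutants, against 76.6, 123 and 49.8 CPM in zymosan-injected wild type and 95.8, 67.1 and 91.03 CPM in uninjected wild type (1.79 ± 0.21, adjusted p = 2.1e-06), and 808 ± 99.5 CPM in zymosan-injected and 695 ± 55.5 CPM in uninjected triple mutants. The sarcomere protein myom1b was higher (0.84) and the actin acta1a lower (-0.95). Without replicate 3 of zymosan-injected wild type 9 members were lower.

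Of 82 ribosomal protein genes tested, 41 were lower and 3 higher than in zymosan-injected wild type (median -0.37). The median against uninjected wild type was -0.26. The count of lower members there was 12, and it was 3 without rraga replicate 3, 6 without rraga replicate 1 and 49 with library totals alone. Large subunit gene rpl38 had 266, 268 and 192 CPM in rraga mutants, against 470.0, 434 and 377 CPM in zymosan-injected wild type and 386, 405 and 405 CPM in uninjected wild type (-0.82 ± 0.13, adjusted p = 0.00012), with no overlap. The count of 41 rests on single libraries. It was 9 without rraga replicate 3, 9 without replicate 1 and 10 without replicate 2 of zymosan-injected wild type, 21 without rraga replicate 1 and 64 without replicate 3 of zymosan-injected wild type, and a fit of only the 6 libraries gave 19. The higher count of 3 was 1 without replicate 2 of zymosan-injected wild type. The gene with the symbol rpl26, whose identity was not settled, is counted among the higher members here too.

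Genes higher in zymosan-injected than in uninjected wild type were only in part raised in rraga mutants. Light-induced genes were among them (14 of 17 tested, median log2 fold change 2.02). Whether the uninjected larvae were imaged is not in the labels. Of the 1153 genes that zymosan raised in wild type (6.07% of those tested), 520 (45.1%) were lower in rraga mutants than in zymosan-injected wild type, and 405 of these were not called against uninjected wild type. A further 82 lay between the wild-type groups and 33 were under both. Of the same 1153, 459 (39.8%) were higher in rraga mutants than in uninjected wild type. Of the 728 that zymosan lowered (3.83%), 317 (43.5%) were higher in rraga mutants than in zymosan-injected wild type, and 173 (23.8%) were lower than in uninjected wild type. The counts of 459 and 173 rest on the same uninjected libraries that served to choose the genes, which by itself raises both counts. A gene chosen as high after zymosan shares its zymosan-injected libraries with the main comparison, which by itself tilts it toward lower values in the mutants.

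Zymosan genes chosen in the triple mutants are free of that tilt, as those 6 libraries enter neither side. In wild type 837 of them were raised too. Genes whose rise needs tfeb, tfe3a or tfe3b may be missing from a choice made in triple mutants. Of the 1452 genes raised there (7.64% of those tested), 522 (36%) were lower and 71 (4.89%) higher in rraga mutants than in zymosan-injected wild type, with a median log2 fold change of -0.29. Leaving out the light and clock lists gave 503 lower and 71 higher of 1422, with a median of -0.28. Any light-driven genes outside these lists stay in that count. Of the 985 genes lowered there (5.18%), 241 were higher and 43 lower in rraga mutants, with a median of 0.21. Without rraga replicate 2 the 71 higher genes became 46.

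Of 61 inflammatory genes tested, 24 were lower and 4 higher than in zymosan-injected wild type (median -0.59). Against uninjected wild type 8 were higher and 3 lower (median 0.18), and these counts were 4 higher without rraga replicate 2 and 1 lower without rraga replicate 1. Zymosan raised 25 of them in wild type. Summed levels were 536, 575 and 606 CPM in rraga mutants, 1087, 1003 and 1147 CPM in zymosan-injected wild type and 542, 534 and 518 CPM in uninjected wild type. The mutants overlapped the uninjected libraries and lay far under the zymosan-injected ones. The higher count of 4 was 2 without replicate 2 of zymosan-injected wild type.

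The cytokine signalling inhibitor socs3b had 19.2, 15.01 and 13.5 CPM in rraga mutants, against 113, 89.8 and 108 CPM in zymosan-injected wild type and 17.6, 15.08 and 15.6 CPM in uninjected wild type. It was called lower than in zymosan-injected wild type (-2.701 ± 0.13, adjusted p = 9e-13) and not against uninjected wild type (-0.02, adjusted p = 0.95), and it stood at 87.1 ± 5.24 CPM in zymosan-injected and 15.4 ± 0.951 CPM in uninjected triple mutants (SD, n = 3 each). Its copy socs3a had 4.94, 7.58 and 4.24 CPM in rraga mutants, against 48.4, 54.8 and 52.1 CPM in zymosan-injected wild type and 6.603, 10.3 and 10.5 CPM in uninjected wild type (-3.21 ± 0.24, adjusted p = 1.9e-09). The inflammatory transcription factor cebpb had 25.1, 22.7 and 27.1 CPM in rraga mutants, against 107, 99.4 and 93.8 CPM in zymosan-injected wild type and 36.5, 27.6 and 29.7 CPM in uninjected wild type (-2.002 ± 0.12, adjusted p = 3.9e-11). The chemokine cxcl18b, made by inflamed epithelium, had 0.715, 0.81 and 1.08 CPM in rraga mutants, against 13.5, 12.6 and 8.69 CPM in zymosan-injected wild type and 0.513, 0.829 and 0.174 CPM in uninjected wild type (-3.73 ± 0.34, adjusted p = 4.9e-08). In all 4 genes the mutants were under every zymosan-injected library, and in all but cebpb they overlapped uninjected wild type.

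**Figure D4:**
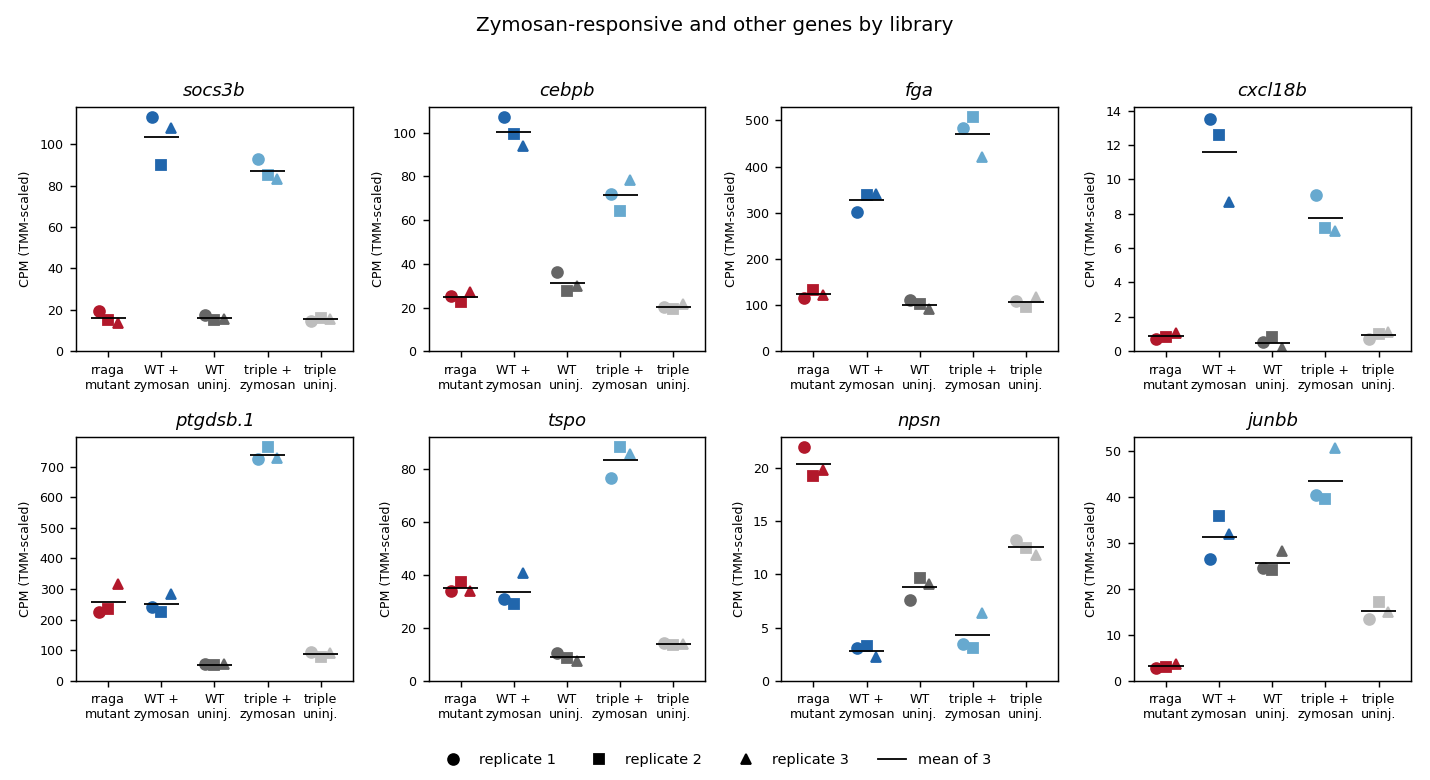
Levels in CPM (linear axes from 0) of 8 zymosan-responsive and other genes in the 3 libraries of each of the 5 groups. Each marker is a library and its shape gives the replicate. The panels of socs3b, cebpb, fga and cxcl18b are high only in the zymosan-injected groups, whereas ptgdsb.1 and tspo are at about the zymosan-injected wild-type level in rraga mutants too.

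The leptin gene lepb had 0 reads over the 3 rraga libraries and 160 over zymosan-injected wild type, at least 50.4-fold lower when the mutants are set at 3 reads over the group, and 0 in uninjected wild type. One chemokine was higher. The gene cxcl8b.3 had 55 reads over the rraga libraries and 1 over zymosan-injected wild type, a ratio of 58.2 after scaling for library size, with an exact 95% counting interval of 10.03 to 2342. Intervals of this kind cover counting error only.

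Products of the liver were also measured. Fibrinogen alpha, fga, a clotting protein of the acute phase, had 116, 132 and 123 CPM in rraga mutants, against 302, 339 and 341 CPM in zymosan-injected wild type and 111, 102 and 90.8 CPM in uninjected wild type. The mutants were under every zymosan-injected library (-1.41 ± 0.10, adjusted p = 2.3e-09) and above every uninjected one without passing the test (0.29, adjusted p = 0.069). Fibrinogen beta, fgb, had log2 fold changes of -1.37 and 0.29. Hepcidin, hamp, the liver hormone that blocks iron export, had 3 reads over the rraga libraries against 399 over zymosan-injected wild type, a ratio of 126 (95% interval 42.7 to 612), and against 66 over uninjected wild type, a ratio of 22.6 (7.41 to 113). Of 46 acute phase and complement genes, 7 were higher and 6 lower than in zymosan-injected wild type. Against uninjected wild type 11 were higher and 1 was lower, where 7.58% of all tested genes were higher and 6.41% lower. The summed level of the list was 1894, 2225 and 2200 CPM in rraga mutants. It was 1716, 2295 and 1695 CPM in zymosan-injected wild type and 1451, 1347 and 1159.5 CPM in uninjected wild type. In this sum the mutants overlapped the zymosan-injected libraries and were above every uninjected one. The complement gene c3b.1 had 2.93, 2.58 and 3.02 CPM in rraga mutants, against 0, 0.395 and 0.189 CPM in zymosan-injected wild type and 0.064, 0.603 and 0.348 CPM in uninjected wild type (3.75 ± 0.56, adjusted p = 5.4e-05) and c3b.2 had 3.93, 5.74 and 5.38 CPM in rraga mutants, against 0.389, 0.855 and 1.32 CPM in zymosan-injected wild type and 1.79, 1.36 and 1.05 CPM in uninjected wild type (2.51 ± 0.36, adjusted p = 3.1e-05), and both were higher than either wild-type group. The higher count of 7 was 4 without replicate 1 of zymosan-injected wild type.

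Of 13 interferon genes, 5 were lower; the interferon signalling factor irf9 had 6.44, 5.08 and 5.38 CPM in rraga mutants, against 14.3, 15.8 and 12.9 CPM in zymosan-injected wild type and 4.68, 5.66 and 3.92 CPM in uninjected wild type (-1.35 ± 0.19, adjusted p = 2.4e-05, and 0.24, adjusted p = 0.49). Without rraga replicate 1, or without replicate 2 of zymosan-injected wild type, 3 were lower. The mutants overlapped uninjected wild type for irf9 and were under every zymosan-injected library.

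Among the lists linked to stress, those of glucocorticoid, p53 and integrated stress response genes had more lower than higher members against zymosan-injected wild type, and those of heat shock genes and chaperones had calls in both directions. Of 27 glucocorticoid and handling genes, 11 were lower and 2 higher than in zymosan-injected wild type (1 higher without rraga replicate 2 or 3 or replicate 1 or 2 of zymosan-injected wild type). The growth factor binding protein igfbp1a had 20.4, 20.8 and 12.1 CPM in rraga mutants, against 61.9, 72.01 and 84.3 CPM in zymosan-injected wild type and 15.3, 14.3 and 16.3 CPM in uninjected wild type (-2.04 ± 0.16, adjusted p = 4.8e-09, and 0.22, adjusted p = 0.44). The kinase sgk1, a glucocorticoid target, had 12.5, 18.3 and 15.08 CPM in rraga mutants, against 61.4, 54.3 and 68.1 CPM in zymosan-injected wild type and 23.5, 21.3 and 17.9 CPM in uninjected wild type (-2.001 ± 0.15, adjusted p = 1.7e-09, and -0.46, adjusted p = 0.043). For both genes the zymosan-injected libraries were far above all others. The gluconeogenic enzyme pck1 was lower than in zymosan-injected wild type (-1.32, adjusted p = 2.1e-05) and higher than in uninjected wild type (0.65, adjusted p = 0.022).

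Of 29 p53 targets, 14 were lower, and 6 were lower than both groups. Cyclin G1, ccng1, on chromosome 14, had 22.1, 20.6 and 25.7 CPM in rraga mutants, against 111, 51.7 and 103 CPM in zymosan-injected wild type and 81.8, 76.6 and 82.7 CPM in uninjected wild type (-1.95 ± 0.18, adjusted p = 7.1e-08, and -1.82), with no overlap. The cell death gene bbc3 was lower as well (-1.67, adjusted p = 4.4e-06). Of 41 integrated stress response genes, 11 were lower; the phosphatase subunit ppp1r15a (-0.84) and the pseudokinase trib3 (-0.82) were among them. Of 35 cholesterol synthesis and uptake genes, 15 were lower (9 with library totals alone). The sterol oxidase msmo1 had 2.79, 2.502 and 1.36 CPM in rraga mutants, against 14.01, 13.5 and 11.02 CPM in zymosan-injected wild type and 4.04, 3.39 and 3.83 CPM in uninjected wild type (-2.53 ± 0.28, adjusted p = 1.2e-06, and -0.76, adjusted p = 0.096). The low-density lipoprotein receptor genes ldlra (-1.13) and ldlrb (-0.90) were lower too.

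Heat shock and oxidative stress genes divided, with 13 higher and 11 lower of 49 tested. The collagen chaperone serpinh1b had 17.9, 19.6 and 50.04 CPM in rraga mutants, against 3.58, 1.97 and 2.14 CPM in zymosan-injected wild type and 24.04, 20.5 and 18.5 CPM in uninjected wild type. It was far higher than in zymosan-injected wild type (3.53 ± 0.32, adjusted p = 4.8e-08), was not called against uninjected wild type (0.47, adjusted p = 0.26) and was lowered by zymosan (-3.05), and mutant replicate 3 was the highest library. The chaperone hspa8 had 121, 123 and 121 CPM in rraga mutants, against 437, 413 and 286 CPM in zymosan-injected wild type and 295, 233 and 342 CPM in uninjected wild type and was lower than both groups (-1.64 ± 0.16, adjusted p = 1.7e-07, and -1.25). The inducible chaperone hsp90aa1.2 had 79.3, 81.5 and 235 CPM in rraga mutants, against 50.4, 39 and 28.5 CPM in zymosan-injected wild type, and its log2 fold change of 1.75 was 1.04 without rraga replicate 3. The lower count was 5 without rraga replicate 3 and 7 without replicate 1 of zymosan-injected wild type, and without rraga replicate 1 and without rraga replicate 2 the higher count was 8 and 7. Of 26 endoplasmic reticulum chaperones 5 were higher and 4 lower, with -0.61, adjusted p = 0.00013, for the stress factor xbp1; 2 were higher without rraga replicate 3, and 3 without replicate 1 or 2 of zymosan-injected wild type.

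Other zymosan genes were above uninjected wild type in both groups and were not called between them. Both groups were imaged before freezing, and whether imaging has a part in such shared increases was not tested. Prostaglandin D synthase, ptgdsb.1, had 226, 234 and 317 CPM in rraga mutants, against 240.0, 226 and 284 CPM in zymosan-injected wild type and 53.8, 51.1 and 54.6 CPM in uninjected wild type. The libraries of mutants and zymosan-injected wild type interleaved (0.05 ± 0.12, adjusted p = 0.83), and both groups were above uninjected wild type (2.28 and 2.23). The mitochondrial translocator protein tspo had 33.8, 37.4 and 33.7 CPM in rraga mutants, against 30.7, 28.9 and 40.5 CPM in zymosan-injected wild type and 10.4, 8.52 and 7.49 CPM in uninjected wild type, with the same shape (0.07 ± 0.13, adjusted p = 0.78). Of the 10 genes with the smallest adjusted p for zymosan in triple mutants, these 2 were not called and the other 8 were lower in rraga mutants than in zymosan-injected wild type. Among the lower ones are the Polycomb gene cbx7a (-2.02, and 1.24 against uninjected wild type), the haem-binding protein gene hebp2 (-1.04 and 1.56) and the vitamin D hydroxylase cyp24a1 (-1.92 and 1.11), which stood between the wild-type groups. The call for fam213b (-0.38, adjusted p = 0.02) was lost without rraga replicate 3 (adjusted p = 0.077) and without replicate 3 of zymosan-injected wild type (adjusted p = 0.10).

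Genes of the gut lining were among those raised against uninjected wild type in both groups. Of 43 tested, 17 were higher in rraga mutants than in uninjected wild type, and 16 were raised by zymosan in wild type. Against zymosan-injected wild type 7 were higher and 7 lower in rraga mutants (16.3% each). In the same order, the shares over all tested genes were 7.58%, 6.07%, 7.84% and 9.55%. The glucose transporter slc5a1 had 27.4, 29.2 and 18.4 CPM in rraga mutants, against 21.9, 22.7 and 30.4 CPM in zymosan-injected wild type and 8.46, 6.41 and 7.32 CPM in uninjected wild type (-0.00 ± 0.17, adjusted p = 1.0, 1.75 and 1.75 for zymosan). The brush border gene vil1 had 217, 216 and 162 CPM in rraga mutants, against 195, 194 and 198 CPM in zymosan-injected wild type and 110.1, 99.01 and 109 CPM in uninjected wild type (0.02, adjusted p = 0.94, and 0.90). In both genes mutants and zymosan-injected wild type overlapped above uninjected wild type. The detoxifying enzyme cyp1a, a hepatocyte list member, had 814, 914 and 64.2 CPM in rraga mutants, against 667, 642 and 664 CPM in zymosan-injected wild type and 17.7, 21.7 and 18.7 CPM in uninjected wild type (-0.14 ± 0.44, adjusted p = 0.87). Mutant replicates 1 and 2 exceeded zymosan-injected wild type, and replicate 3 was far lower, as it was for per2; without rraga replicate 3 the log2 fold change was 0.40 (adjusted p = 0.034). The glutathione synthesis enzyme gclc (0.18, adjusted p = 0.25, and 0.84, adjusted p = 8.1e-06) and the mitochondrial chaperone hspe1 (0.03, adjusted p = 0.88, and 0.60, adjusted p = 0.00083) were raised against uninjected wild type as well, and the chaperone hspd1 had 300.5, 310.2 and 286 CPM in rraga mutants, against 229, 234 and 219 CPM in zymosan-injected wild type and 138, 147 and 128 CPM in uninjected wild type, higher than both groups (0.40 and 1.12).

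Markers of phagocytes were measured because rraga is known for its role in microglia. Of 31 microglia and macrophage genes tested, 7 were higher and 4 lower than in zymosan-injected wild type (median 0.37). Against both wild-type groups 6 were higher and 2 lower. Values are given here for 3 of the higher members and 1 of the lower ones. In the summed level given above for this list the mutants were above both wild-type groups, which overlapped each other. Most of the mutants' sum came from apoeb, and without this gene every mutant library was below every library of both wild-type groups. Apolipoprotein E, apoeb, a marker of zebrafish microglia, had 432, 409 and 424 CPM in rraga mutants, against 309, 273 and 314 CPM in zymosan-injected wild type and 252, 237 and 238 CPM in uninjected wild type (0.50 ± 0.09, adjusted p = 0.00064, and 0.80). Progranulin b, grnb, had 35.3, 34.2 and 39.3 CPM in rraga mutants, against 12.6, 16.7 and 22.2 CPM in zymosan-injected wild type and 22.6, 19.2 and 21.3 CPM in uninjected wild type (1.08 ± 0.16, adjusted p = 3.4e-05, and 0.79). The leukocyte actin-bundling gene lcp1 had 11.8, 15.2 and 11.2 CPM in rraga mutants, against 5.45, 4.87 and 3.399 CPM in zymosan-injected wild type and 6.03, 5.43 and 7.67 CPM in uninjected wild type (1.48 ± 0.22, adjusted p = 5.6e-05). All 3 genes were higher in every mutant library than in every wild-type library. The second apolipoprotein E gene apoea was lower, at 42.4, 39.8 and 19.7 CPM in rraga mutants, against 91.4, 83.3 and 92.8 CPM in zymosan-injected wild type and 125, 135 and 83.4 CPM in uninjected wild type (-1.39, adjusted p = 0.00015). Other macrophage markers were not called, with -0.75, adjusted p = 0.13, for mpeg1.2, 0.51, adjusted p = 0.31, for csf1ra and 0.40, adjusted p = 0.69, for the microglial receptor p2ry12. The lower count of 4 was 1 without rraga replicate 3 or without replicate 2 of zymosan-injected wild type.

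Of 20 neutrophil genes, 2 were higher (10%) and 2 lower (10%), near the shares over all tested genes (7.84% and 9.55%). Myeloperoxidase, mpx, had 7.87, 8.32 and 7.83 CPM in rraga mutants, against 0.7, 0.395 and 0.566 CPM in zymosan-injected wild type and 3.65, 3.92 and 3.48 CPM in uninjected wild type. The mutants were above all wild-type libraries (3.85 ± 0.35, adjusted p = 4.9e-08, and 1.12), and zymosan lowered the gene in wild type (-2.73, adjusted p = 1e-05). The protease npsn had 21.96, 19.2 and 19.8 CPM in rraga mutants, against 3.03, 3.22 and 2.203 CPM in zymosan-injected wild type and 7.63, 9.65 and 9.06 CPM in uninjected wild type, in the same order (2.85 ± 0.23, adjusted p = 8.7e-09, 1.21, and -1.64 for zymosan). The matrix protease mmp9 had 3.79, 4.56 and 3.303 CPM in rraga mutants, against 11.98, 8.42 and 15.6 CPM in zymosan-injected wild type and 2.18, 2.19 and 1.57 CPM in uninjected wild type and was below zymosan-injected and above uninjected wild type (-1.63, adjusted p = 0.00012, and 0.96, adjusted p = 0.032). Without rraga replicate 3, 4 members were higher, and 1 was lower without any one of rraga replicates 2 and 3 or zymosan-injected replicates 1 and 3.

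The remaining lists had calls in both directions or few calls. Over all tested genes 7.84% were higher and 9.55% lower than in zymosan-injected wild type. Cell cycle genes were near these shares (11.5% and 7.69%), as was the higher share of hepatocyte genes (7.69%). The lower shares of pigment cell (6.90%), exocrine pancreas (9.52%) and mitochondrially encoded genes (7.69%) were also near that of all tested genes. Against uninjected wild type 0 of 52 cell cycle genes were higher and 13 lower (7 lower without rraga replicate 2). Over all tested genes 6.41% were lower there. Zymosan raised 1 cell cycle gene and lowered 13 in wild type. Of 69 lipid transport and fatty acid oxidation genes 10 were higher and 10 lower than in zymosan-injected wild type, with the oxidation enzyme acadvl higher (0.39, adjusted p = 0.0036) and the carrier apoc2 lower (-0.70, adjusted p = 0.00075). The higher count was 6 without rraga replicate 1 or 3, and 5 without replicate 1 of zymosan-injected wild type. Of 52 cell cycle genes 6 were higher and 4 lower, and the replication helicase mcm2 had 71.5, 68.7 and 73.4 CPM in rraga mutants, against 46.8, 43.5 and 37.4 CPM in zymosan-injected wild type and 68.7, 72.2 and 64.3 CPM in uninjected wild type (0.74 ± 0.10, adjusted p = 1.1e-05, and 0.06, adjusted p = 0.76); 2 were higher and 2 lower without rraga replicate 3, 3 higher and 2 lower without replicate 2 of zymosan-injected wild type, and 8 lower without replicate 3 of zymosan-injected wild type. Of 29 pigment cell genes 7 were higher and 2 lower. Tyrosinase, tyr, the first enzyme of melanin synthesis, had 79.9, 83.5 and 81.8 CPM in rraga mutants, against 41.2, 45.2 and 31.2 CPM in zymosan-injected wild type and 45.4, 47.6 and 38.9 CPM in uninjected wild type (1.06 ± 0.12, adjusted p = 1.9e-06, and 0.89), with no overlap. The higher count was 4 without rraga replicate 1 or without replicate 3 of zymosan-injected wild type, and the lower count was 1 without replicate 1 of either group. Of 25 radial glia genes 1 was higher and 7 were lower (4 lower without replicate 2 of either group, 2 higher without replicate 3 of zymosan-injected wild type), with -0.60, adjusted p = 0.00036, for the fatty acid binding protein fabp7a. Of 39 hepatocyte genes 3 were higher and 6 lower, of 21 exocrine pancreas genes 3 and 2, and of 13 mitochondrially encoded genes 1 was lower. Without rraga replicate 3, 5 hepatocyte genes were higher, and 1 exocrine pancreas gene was lower without rraga replicate 3 or replicate 1 or 2 of zymosan-injected wild type. Without replicate 3 of zymosan-injected wild type, 5 mitochondrially encoded genes were lower, and the 1 call was lost without any other single library of the 6.

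Of the 8 genes named for the largest decreases, 6 lay on chromosome 14, that of the targeted gene; the others were hamp and lim2.1. Thymosin beta, tmsb1, had 3 reads over the rraga libraries and 3204 over zymosan-injected wild type, a ratio of 1008 with a 95% counting interval of 345 to 4893. The histone deacetylase hdac3 had 1 read and 492 reads, a ratio of 465 (83.0 to 18386). The mitochondrial chaperone hspa9 had 4.29, 5.299 and 4.95 CPM in rraga mutants, against 97.4, 134 and 103 CPM in zymosan-injected wild type and 82.2, 97.7 and 77.4 CPM in uninjected wild type (-4.52 ± 0.19, adjusted p = 1.5e-13, and -4.14). The nucleotide synthesis enzyme prps1b had 0.358, 0.294 and 0.215 CPM in rraga mutants, against 7.31, 11.3 and 4.59 CPM in zymosan-injected wild type and 7.89, 11.2 and 10.2 CPM in uninjected wild type (-4.7 ± 0.42, adjusted p = 4.9e-08) and the zinc finger gene znf711 had 0.358, 0.589 and 0 CPM in rraga mutants, against 4.28, 7.3 and 9.63 CPM in zymosan-injected wild type and 10.8, 9.28 and 11.06 CPM in uninjected wild type (-4.46 ± 0.52, adjusted p = 2.1e-06). These 5 start between 11975344 (znf711) and 12178915 (hdac3) on chromosome 14, and in each the mutants were under all wild-type libraries.

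Of 664 tested genes on chromosome 14, 57 were higher and 96 lower than in zymosan-injected wild type, 23.0% together, against 17.2% on the other chromosomes; single chromosomes ranged from 13.3% to 23.0%. Within 5 Mb of rraga 14 of 102 genes were higher and 23 lower (36.3%), and 15 of the lower ones changed over 4-fold. All 15 start 0.991 to 2.6 Mb before rraga, between 11427052 and 13048355 on GRCz11 chromosome 14. That stretch, which was chosen after its values were seen, held 20 tested genes, of which 16 were lower, and 14 of the 15 were also lower than in uninjected wild type. Beyond 5 Mb the share was 20.6%. Whether the line's lesion, sequence differences near it or the counting of reads has a part in these values was not tested.

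**Figure D5:**
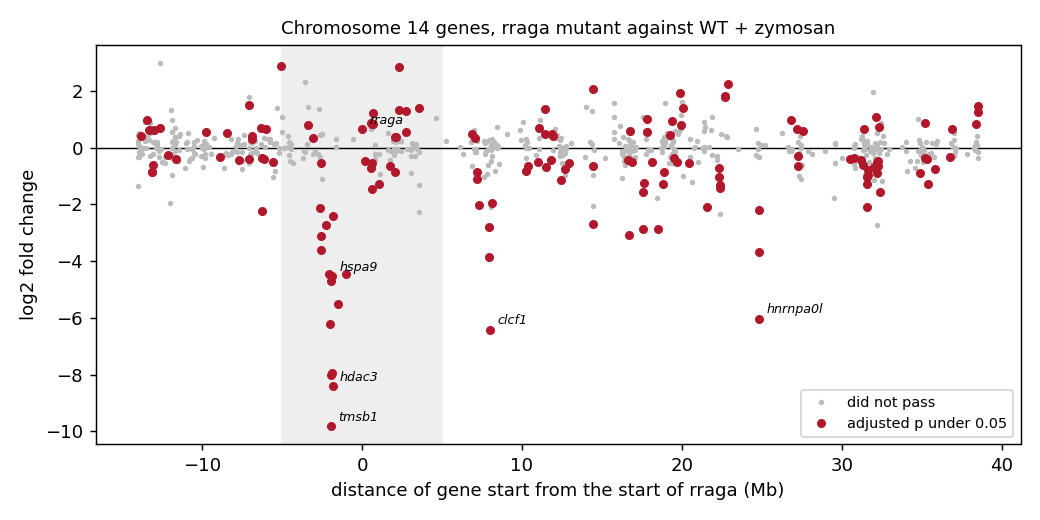
Log2 fold change of rraga mutants against zymosan-injected wild type for the tested genes of chromosome 14, by distance in Mb from the start of rraga; coloured points were called changed and the grey band marks 5 Mb on either side. A run of genes 0.991 to 2.6 Mb before rraga lies under -2, with hspa9 at -4.52.

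The 8 genes named for the largest increases were on other chromosomes. The co-chaperone ptges3a had 30.7, 32.9 and 39.6 CPM in rraga mutants, against 0.7, 0.46 and 0.441 CPM in zymosan-injected wild type and 0.192, 0.528 and 0.61 CPM in uninjected wild type (6.01 ± 0.28, adjusted p = 7e-13, and 6.31), and it stood at 30.1 ± 5.48 CPM in zymosan-injected and 27.1 ± 7.14 CPM in uninjected triple mutants, close to the rraga mutants. The kinase gene rps6ka3a had 5.15, 7.95 and 5.46 CPM in rraga mutants, against 0.389, 0.592 and 0.441 CPM in zymosan-injected wild type and 1.54, 1.13 and 0.523 CPM in uninjected wild type (3.67 ± 0.64, adjusted p = 0.00028). The lysosomal transporter atp13a2 had 4.08, 4.05 and 4.67 CPM in rraga mutants, against 0.545, 0.592 and 0.441 CPM in zymosan-injected wild type and 1.09, 1.28 and 1.31 CPM in uninjected wild type (3.002 ± 0.45, adjusted p = 4.6e-05, and 1.796). In each no mutant library overlapped the wild type. The call for polr2c (3.099, adjusted p = 0.012) was lost without rraga replicate 2 (adjusted p = 0.13) and without replicate 1 of zymosan-injected wild type (adjusted p = 0.054), and mutant levels of 4.15, 10.2 and 0.862 CPM show that spread.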

How the data were processed

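RNA-seq read counts per gene of whole zebrafish larvae were analysed. Per the submitters' processing notes, reads were processed with HISAT2 2.0.5, StringTie 1.3.3b and featureCounts 1.5.0 on GRCz11; whether strand was used is not stated there. The authors deposited 3 tables with raw counts, a normalised signal (counts divided by size factors) and FPKM; only the raw counts were used. The tables were joined by gene identifier (24609 genes in any table, 22086 in all 3), missing rows being set to 0. Counts of all 15 libraries, which held 12314113 to 17566540 reads each, were fitted with edgeR 4.0.16 (R 4.3.3; filterByExpr, TMM, one mean per group, quasi-likelihood F test with 10 residual degrees of freedom), and p-values were adjusted by the Benjamini-Hochberg method over 19006 genes. The fit was tested on simulated data. SE is the log2 fold change divided by the root of F. Same-numbered libraries of rraga mutants and both wild-type groups did not vary together (correlations of -0.101 to 0.021). Replicate numbers were therefore not used as pairs in the main fit. Such correlations cannot exclude shared clutches or days. The alternatives were other scalings, DESeq2 1.42.0, no filter, fewer libraries, a replicate block and leaving out each library. All members and gene lists were chosen with earlier results of these data known. Genes named are those of the targeted loci, the 8 largest changes per direction among called genes whose groups did not overlap, whose log2 CPM over the 6 libraries averaged more than 1 and whose symbol is not a clone or locus name, the light, clock, Rag and MiT/TFE lists, up to 6 members per direction of the other 31 lists and the 10 strongest zymosan genes of triple mutants; 24 more (aco1, alas1, csf1ra, ctsa, ctsba, ctsk, cyp1a, egr1, fuca1.1, gba, gclc, hif1aa, hspe1, mpeg1.2, naga, npas4a, p2ry12, pde6ha, psap, slc40a1, slc5a1, tfr1b, tpp1 and vil1) were chosen after their values were seen. No sequences were printed.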

Additional observations from a re-analysis of the deposited data

How the results depend on the processing

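Against zymosan-injected wild type, no named gene other than cyp1a changed direction with a call under any alternative run; cyp1a was -0.14 with all libraries, -0.58 to 0.40 when single libraries were left out (0.40 without rraga replicate 3) and 0.41 without replicate 3 of both groups, an alternative added after seeing the data. Scaling by library totals alone left 1049 lower genes, 475 genes lower than both wild-type groups, 270 zymosan-raised genes lower in the mutants and 283 of those raised in triple mutants. Fitting only the 6 libraries left 1194 lower genes. Asking for at least a 2-fold change left 486 higher and 480 lower genes, 187 and 164 against both wild-type groups, 143 of the zymosan-raised genes and 141 of those raised in triple mutants. DESeq2 called 1628 higher and 1905 lower genes and no filter gave 1665 and 1809. Leaving out single libraries gave 1100 to 1663 higher and 1360 to 1893 lower genes, 468 to 619 higher and 507 to 757 lower than both wild-type groups, 378 to 556 of the zymosan-raised genes and 410 to 519 of those raised in triple mutants. Among the gene lists, library totals alone gave 2 lower lysosomal membrane genes, 3 lower autophagy, 4 lower Rag pathway, 1 lower macrophage, 3 lower interferon, 5 lower heat shock, 2 lower cell cycle and 3 lower radial glia genes, 17 higher muscle genes, and 22 lower genes among those that zymosan lowered in triple mutants. Fitting only the 6 libraries gave 3 higher and 4 lower autophagy genes, 5 lower Rag pathway, 2 higher inflammatory, 3 higher endoplasmic reticulum chaperone, 7 higher heat shock, 3 higher cell cycle, 8 lower photoreceptor and 3 lower radial glia genes. The cause of these moves was not tested.

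The replicate block, a fit with the replicate number as a term, gave 1394 higher and 1703 lower genes, 577 and 668 against both wild-type groups, 476 zymosan-raised genes and 493 of those raised in triple mutants, all within 1.5 times the counts without it; it gave 3 higher endoplasmic reticulum chaperones and 7 ribosomal protein genes lower than in uninjected wild type; 9 of 388 named genes lost their call. Among the named genes 37 of 388 lost their call with library totals, 43 without rraga replicate 3 and 50 without replicate 3 of both groups. Genes at few reads, such as most macrophage markers, allow large changes to go uncalled at this depth.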

Other observations

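A few genes of iron and haem handling are given here; other than tfa they were chosen after their values were seen, so they support no statement on such genes as a group. The second transferrin receptor gene tfr1b, which imports iron in many cells, had 67.9, 82.6 and 64.98 CPM in rraga mutants, against 10.3, 12.8 and 11.6 CPM in zymosan-injected wild type and 12.1, 9.12 and 8.36 CPM in uninjected wild type. Every mutant library was above every wild-type library, with log2 fold changes of 2.63 ± 0.16, adjusted p = 8.2e-11, against zymosan-injected and 2.86 against uninjected wild type by edgeR's quasi-likelihood test over all genes. The first enzyme of haem synthesis outside red cells, alas1, had 595, 589.5 and 624 CPM in rraga mutants, against 313, 294 and 252 CPM in zymosan-injected wild type and 186, 181 and 189.6 CPM in uninjected wild type (1.07 and 1.699), without overlap, and zymosan had also raised it in wild type (0.63). Transferrin, tfa, the iron carrier of the blood, had 976, 1138 and 1186 CPM in rraga mutants, against 540.0, 789.5 and 461 CPM in zymosan-injected wild type and 552, 536 and 462 CPM in uninjected wild type (0.88 and 1.09). The iron-regulated aconitase aco1 (0.92 and 0.65) and the hypoxia factor hif1aa (1.04 and 1.04) were higher than in both wild-type groups, and the iron exporter slc40a1 was called against neither (-0.14, adjusted p = 0.4, and -0.22, adjusted p = 0.17). The triple mutants stood at 27.9 ± 3.29 CPM after zymosan and 26.2 ± 5.35 CPM uninjected for tfr1b (SD, n = 3 each).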
